A study of Homo sapiens with 6 samples.

Results

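The genes described here are 31 genes known to be induced by androgen in prostate cells, other than the kallikrein protease genes. They were taken by gene name from a list of 32 such genes, 31 of which stand among the 16000 genes of the deposited table. HPGD was the remaining name and was not analysed here. Androgen enters the cell, binds its nuclear receptor and frees it from chaperones, and the receptor then binds DNA elements and raises transcription of genes nearby or at a distance. In prostate cells these genes encode secreted and membrane proteins, enzymes of lipid and sugar metabolism, and feedback proteins such as the co-chaperone FKBP5. Their RNA is therefore often read as a measure of androgen signalling.

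RNA was measured in LNCaP, an androgen-responsive line of human prostate cancer cells. ALDEFLUOR staining, which makes cells fluoresce by the activity of aldehyde dehydrogenase (ALDH), was followed by sorting. The 10% of cells with the highest activity gave 3 samples, named ALDH high, and the 10% with the lowest gave 3 samples, named ALDH low. Sorted cells went into culture, in RPMI-1640 with 10% FBS (fetal bovine serum) for both groups, and how long they stayed there before RNA was taken is not stated in the labels. No treatment is named for either group, and no androgen was named as added. All samples come from 1 cell line. The labels do not tie the samples of a group to separate sorts or cultures, and the p-values then cover only sample-to-sample spread, which may be technical. The comparison asks which genes differ between the cells with high and with low ALDH activity.

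Values are normalized reads, that is, a gene's poly(A) RNA reads divided by 1 size factor per library, and each library held between 23721265 and 30467638 recovered reads. Values per library stand in the order of the sample numbers, 1, 2 and 3. A difference is the ALDH high mean minus the ALDH low mean of log2(normalized reads + 1), tested with limma over all 16000 genes with Benjamini-Hochberg adjustment at 0.05, with 95% intervals from the fit. As a check of the cell type, 7 of 7 prostate luminal markers were listed, among them KLK3 and HOXB13. Their summed share of reads was 0.599% to 0.631% in ALDH high and 0.592% to 0.647% in ALDH low. Of markers of other cells, 1 of 6 leukocyte, 2 of 6 fibroblast, 1 of 4 endothelial and 3 of 7 basal markers were listed. So were 3 of 6 neuroendocrine markers. PTPRC, DCN, PECAM1 and TP63 were not among the rows analysed here. For basal markers the ALDH high and ALDH low means were 3113 and 2879 (ITGA6), 419 and 313 (DST) and 132.5 and 183 (KRT14). For neuroendocrine markers the means were 2155 and 1572 (ENO2), 16.3 and 12.0 (NCAM1) and 71.3 and 78.4 (SYP). They were 1646 and 1229 for COL1A1 (fibroblast), 282 and 315 for VWF (endothelial) and 23.5 and 23.7 for CD68 (leukocyte). The 2 fibroblast markers, COL1A1 and PDGFRB, were higher in every ALDH high library than in any ALDH low library. That held for 3.67% of all genes, and the margins of these 2 were narrow. The closest libraries of COL1A1 were ALDH high 2, at 1468.9, and ALDH low 2, at 1450.5. Those of PDGFRB were ALDH high 1, at 70.17, and ALDH low 2, at 68.3. None of these markers passed the test. Libraries differed in ways the labels do not give. In many of the genes described here, ALDH high 2 lay apart from ALDH high 1 and 3, and ALDH low 2 lay near them. Whether both libraries carry the label of their own group was not tested, and every comparison of 3 against 3 samples rests on those labels. Reads from the mitochondrial genome took 4.90%, 2.89% and 4.90% in the ALDH high libraries and 2.01%, 4.55% and 2.996% in the ALDH low libraries.

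RefSeq promoters (GRCh38.p14, 300 bases, from 250 before a start to 50 after it) were found for 22 of the 31 genes, 46 windows in all, since a gene can have several starts. They were searched on both strands for the hexamer of steroid receptors, AGAACA or its reverse complement TGTTCT, and for the full element, which is 2 such hexamers facing each other with a gap of 3 bases. The hexamer is part of the full element, so each full element also counts as a hexamer. The hexamer stood in 4 of the 46 windows (8.70%), and in 14.8% of all 35116 windows of that length. The full element stood in none of the 46 and in 1 of the 35116. TMPRSS2, PLPP1 and SORD were among the genes without a window, so these counts do not cover them. Before the start, the hexamer stood in 2 of the 46 windows (4.35%) and in 12.4% of all windows. Those were 1 window each of PMEPA1 and TRPM8, printed here to show the hexamer, in capitals, in its context. The PMEPA1 stretch lies at chr20:57710590-57710827 on the minus strand, ahead of a start inside the gene, and its hexamer begins 229 bases before that start. It also lies within exons of NKILA, an antisense long noncoding RNA gene. The TRPM8 stretch lies at chr2:233979899-233980121 on the plus strand, ahead of a start inside the gene, and its hexamer begins 166 bases before that start. Both stretches end before the exons of protein-coding genes.
PMEPA1: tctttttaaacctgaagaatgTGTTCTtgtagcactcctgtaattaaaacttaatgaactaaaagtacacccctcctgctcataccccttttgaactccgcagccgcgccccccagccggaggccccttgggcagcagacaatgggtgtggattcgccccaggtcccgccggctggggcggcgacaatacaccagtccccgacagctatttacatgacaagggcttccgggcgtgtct
TRPM8: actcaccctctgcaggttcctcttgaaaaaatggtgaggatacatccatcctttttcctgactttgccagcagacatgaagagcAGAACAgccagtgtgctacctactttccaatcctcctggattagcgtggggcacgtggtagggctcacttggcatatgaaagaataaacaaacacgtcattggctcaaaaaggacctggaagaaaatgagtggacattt
A match says only that these letters stand in the window. Binding of the receptor was not measured.

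None of the 31 androgen-induced genes passed the test between ALDH high and ALDH low, against a background of 0% of all genes. At an unadjusted limma p under 0.05 the count was also 0, against 2.11% of all genes, and edgeR and DESeq2 on the recovered reads also gave 0 of the 31, where 2.23% and 2.22% of all genes had an unadjusted p under 0.05. The smallest unadjusted limma p was 0.0815, for ABHD2, with an adjusted p of 0.984. The authors' deposited table gives 0 of the 31 genes a p under 0.05, against 355 of its 16046 rows, spike-ins included. The lowest value among the 31 is 0.0932. In 11 genes the difference lay above 0 and in 20 below, where 52.3% of all genes lay above 0 and 47.7% below. With mitochondrial genes left out of the scaling, 14 of the 31 lay above 0, and 62.5% of all genes did. With libraries scaled by their total reads, 12 of the 31 and 59.8% of all genes did. The median difference was −0.07, beside 0.02 over all genes. All 31 intervals included 0, and 26 of them lay within a 2-fold change either way. The genes together took 0.318%, 0.416% and 0.316% of reads in the ALDH high libraries and 0.406%, 0.327% and 0.332% in the ALDH low libraries, so that the groups overlapped. In bulk RNA of this kind, fewer cells with a transcript and less of it per cell cannot be told apart.

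**Figure D1:**
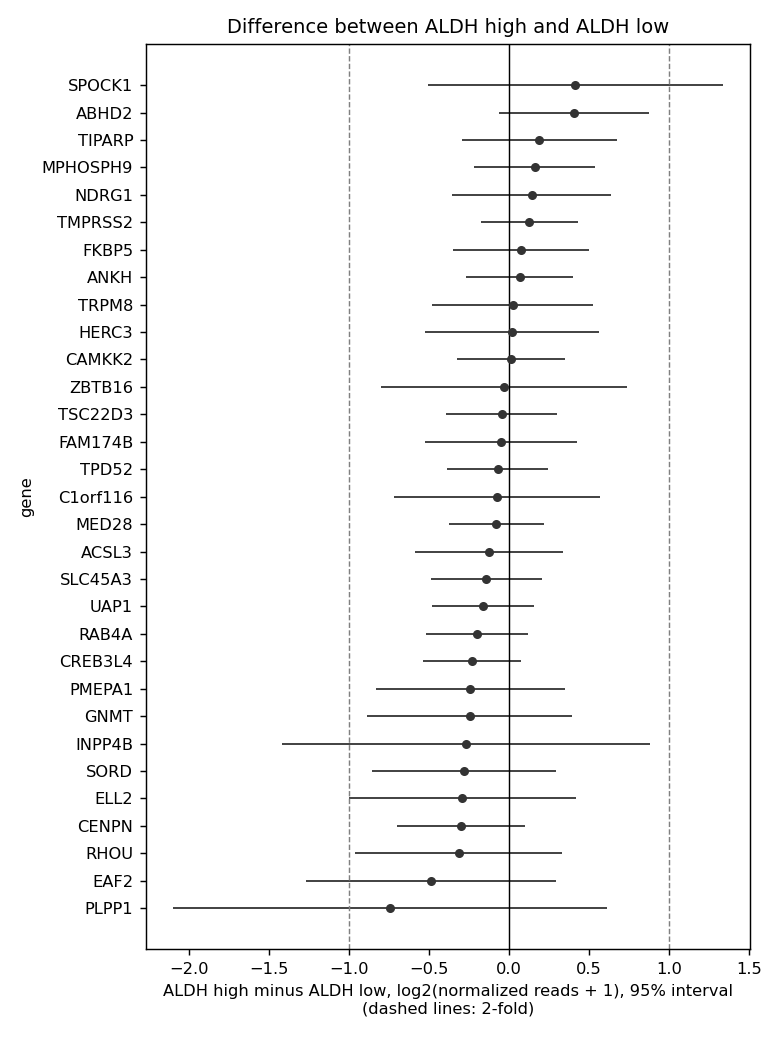
Difference between ALDH high and ALDH low for each of the 31 genes, as log2(normalized reads + 1), with points for the limma estimate and bars for its 95% interval (3 samples per group, dashed lines at 2-fold). All 31 bars cross 0, and PLPP1, at −0.74, has the widest bar.

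The groups did not overlap in 1 gene that was higher in ALDH high and in 3 that were lower, against 3.67% and 3.32% of all genes. TMPRSS2, a membrane serine protease whose androgen-driven promoter is fused to ETS genes in many prostate tumours (GRCh38, as all gene positions here, chromosome 21, 41464551 to 41531116), had 8273, 7972 and 8203 normalized reads in the ALDH high libraries and 7055, 7684 and 7659 in the ALDH low libraries. All 3 ALDH high libraries lay above all 3 ALDH low libraries, by a margin that was narrow at ALDH high 2 and ALDH low 2. Its difference was 0.13 (95% interval −0.18 to 0.43). TMPRSS2 was among the least variable of the 31 genes, with its highest library 1.17-fold above its lowest.

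UAP1, which makes the sugar donor UDP-N-acetylglucosamine (chromosome 1, 162561506 to 162599842), had 8142, 8300 and 7654 normalized reads in the ALDH high libraries, against 9819, 8650 and 8533 in ALDH low, in sample order. Its difference was −0.16 (−0.48 to 0.15). CREB3L4, a membrane-bound transcription factor of the endoplasmic reticulum that is abundant in prostate (chromosome 1, 153967534 to 153974363), had 1613, 1632 and 1784 in the ALDH high libraries, against 2035, 1838 and 2028 in ALDH low. The groups were apart by little at ALDH high 3 and ALDH low 2, and the difference was −0.23 (−0.53 to 0.07). RAB4A, a GTPase of endosome recycling (chromosome 1, 229271062 to 229305894), had 1146, 1161 and 1112 in the ALDH high libraries, against 1459, 1210 and 1267 in ALDH low, a difference of −0.20 (−0.52 to 0.12). When libraries were scaled by their total reads, or by their total without mitochondrial genes, the groups still did not overlap in TMPRSS2 and CREB3L4, while in UAP1 and RAB4A they did. That left 1 gene higher and 1 lower, against 3.91% and 2.51% of all genes with total reads and 4.13% and 2.23% without mitochondrial genes. Exons of neighbouring genes on the other strand cover 12.9% of the exon bases of CREB3L4, and those of a gene on the same strand cover 19.6% of RAB4A, whose reads are therefore uncertain.

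**Figure D2:**
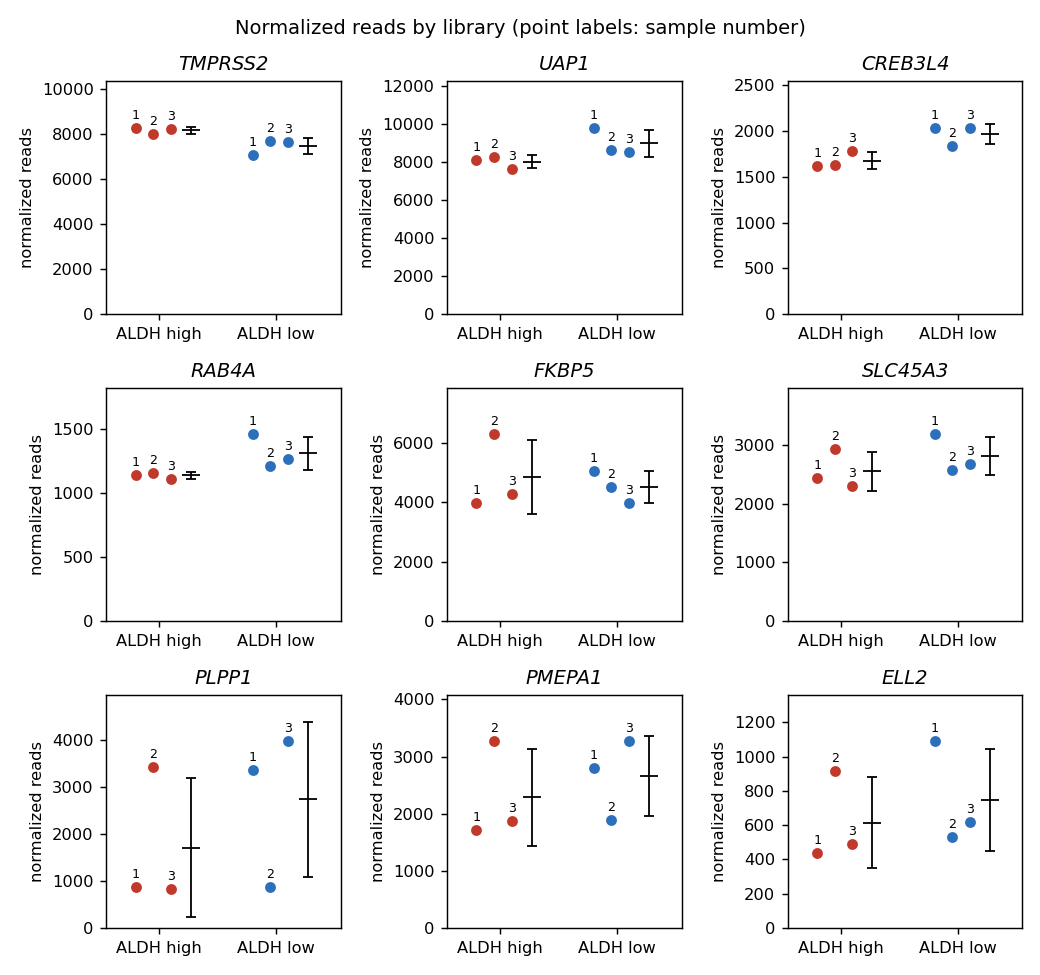
Normalized reads of 9 androgen-induced genes by library, with ALDH high in red on the left and ALDH low in blue on the right of each panel, the sample number above each point and the mean ± SD beside each group (n = 3). TMPRSS2, UAP1, CREB3L4 and RAB4A keep the groups apart, while in PLPP1 ALDH high 2, ALDH low 1 and ALDH low 3 stand at 3367 or more and the other libraries at 879 or less.

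These genes varied between libraries, across as well as within the groups. Over all 6 libraries, the highest lay over 2-fold above the lowest in 11 of the 31 genes (35.5%), beside 30.7% of all genes. In the 28 genes averaging 100 normalized reads or more it did so in 8 (28.6%), beside 13.8% of all genes of that level. The median SD within groups was 0.26 on the log2 scale in these 28 genes and 0.23 in genes of that level. The libraries took different places in this variation. ALDH high 1, ALDH high 3 and ALDH low 2 lay below a gene's own mean in 26, 25 and 23 of the 31 genes. ALDH high 2 and ALDH low 1 lay above it in 23 and 24, and ALDH low 3 in 18. Over genes with a mean of at least 100, between 46.8% and 51.2% lay above their own mean in each library. The median deviation of the 31 genes was −0.17, 0.23 and −0.11 in the ALDH high libraries and 0.21, −0.11 and 0.02 in the ALDH low libraries, on the log2 scale.

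**Figure D3:**
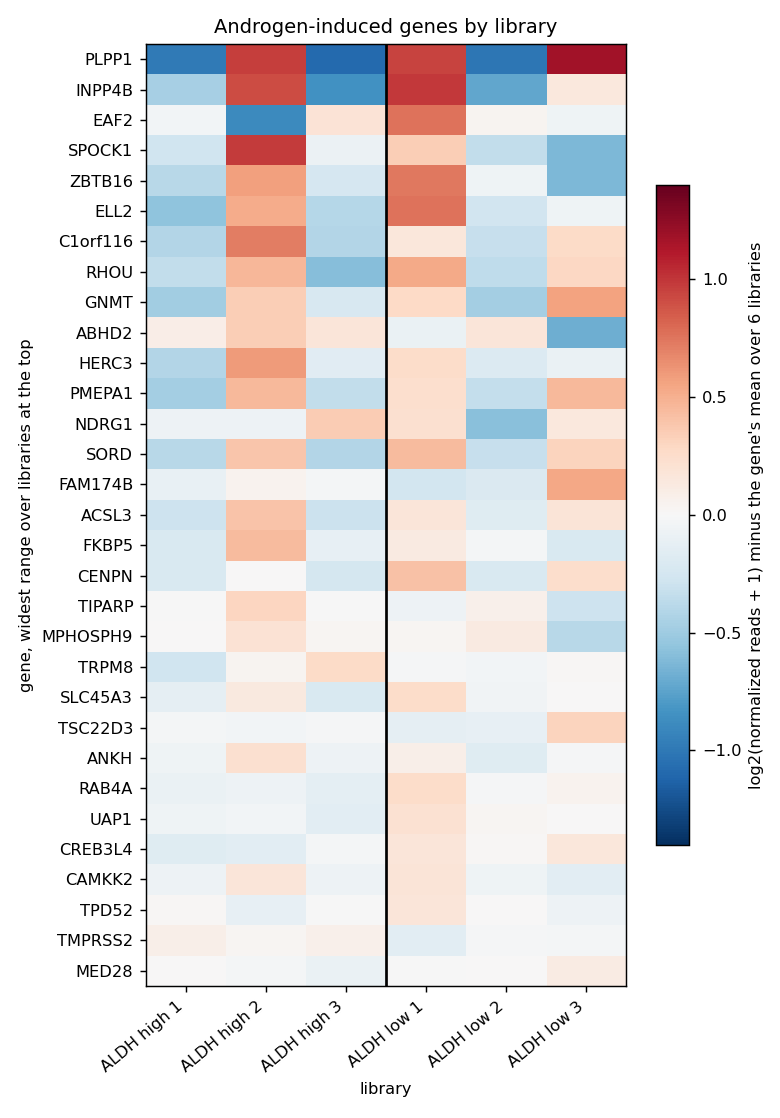
Deviation of each of the 31 genes from its own mean over the 6 libraries, on the log2(normalized reads + 1) scale, red above and blue below the mean, with ALDH high left of the black line and ALDH low right of it. ALDH high 1 and 3 and ALDH low 2 are mostly blue, and ALDH high 2 and ALDH low 1 mostly red, with PLPP1 and INPP4B at the top as the genes of widest range.

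ALDH low 1 was the highest library in 13 of the 31 genes, ALDH high 2 in 9 and ALDH low 3 in 6, while ALDH low 2 was the highest in 0. ALDH high 3 was the lowest library in 11, ALDH low 3 in 7 and ALDH high 1 in 6. Across the 31 genes, the deviations of ALDH high 1 had a Pearson r of 0.80 with those of ALDH high 3 and 0.79 with those of ALDH low 2, and −0.68 with those of ALDH high 2. Over genes with a mean of at least 100 the same values were 0.71, 0.66 and −0.52. These are descriptions across genes measured in the same libraries, and subtracting each gene's mean by itself pulls such correlations below 0. The libraries with the smaller values of these genes were those with the larger mitochondrial share of reads, 4.55% to 4.90%, against 2.01% to 2.996% in the others. Its part in the pattern was not tested. With mitochondrial genes left out of the scaling, ALDH low 1 and ALDH high 2 were the highest libraries in 12 and 11 of the 31 genes. That scaling changes all genes of a library by the same factor, so it does not test the part of the mitochondrial share.

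Of the 6 enzymes, 3 had a highest library over 2-fold above the lowest. PLPP1, a phosphatase of lipid phosphates at the cell surface (chromosome 5, 55424854 to 55535050), had 879, 3429 and 825 normalized reads in the ALDH high libraries and 3367, 870 and 3972 in the ALDH low libraries. ALDH high 2 lay beside ALDH low 1 and 3, and ALDH low 2 beside ALDH high 1 and 3, so that the groups overlapped although the highest library was 4.81-fold above the lowest. Its difference was −0.74 (95% interval −2.10 to 0.61). Leaving out 1 library moved it between −1.43, without ALDH low 2, and −0.34, without ALDH low 3. Exons of genes on the other strand cover 23.9% of its exon bases.

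SORD, sorbitol dehydrogenase (chromosome 15, 45023104 to 45077185), had 8411, 14398 and 8272 in the ALDH high libraries, against 14944, 8797 and 13685 in ALDH low, in sample order. As in PLPP1, ALDH high 2 and ALDH low 1 and 3 lay above the other libraries, with a 1.81-fold span and a difference of −0.28 (−0.86 to 0.29). SORD has a near-identical pseudogene copy, so counting of uniquely placed reads can lose part of its reads. ACSL3, an acyl-CoA synthetase of lipid droplets, had 5973, 9655 and 5924 in the ALDH high libraries, against 8230, 6497 and 8269 in ALDH low, where ALDH high 2 was the highest of all. GNMT, glycine N-methyltransferase, ran from 345 to 616 in ALDH high and from 348 to 714 in ALDH low, with ALDH high 1 and ALDH low 2 at the low ends. ABHD2, a lipase of monoacylglycerols, was the enzyme with a difference above 0. It had 9152, 10874 and 9636 in the ALDH high libraries, against 8032, 9603 and 5346 in ALDH low, a difference of 0.41 (−0.06 to 0.87) in which ALDH low 3 stood far below the rest. Without ALDH low 3 the difference of ABHD2 was 0.17. With UAP1 included, 5 enzymes lay below 0 and 1 above, with a median of −0.20.

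In regulators of signalling, PMEPA1, RHOU and INPP4B also had ALDH high 2 and ALDH low 1 and 3 above the other libraries. PMEPA1, which dampens TGF-beta signalling and for which a window with a hexamer is printed above, had 1707, 3266 and 1880 normalized reads in the ALDH high libraries and 2808, 1891 and 3268 in the ALDH low libraries. ALDH high 2 and ALDH low 3 were close to each other at the top, and ALDH low 2 lay beside ALDH high 3, with a difference of −0.24 (95% interval −0.83 to 0.35). INPP4B, a phosphoinositide phosphatase that restrains AKT signalling, had 48.2, 126.8 and 36.6 in the ALDH high libraries, against 133.4, 40.02 and 73.9 in ALDH low. Its span was 3.65-fold at a low level, with 32 recovered reads in its lowest library. RHOU, a small GTPase, ran from 662 to 1377 in ALDH high and from 780 to 1444 in ALDH low, with ALDH high 2 and ALDH low 1 at the high ends. NDRG1, a stress and hypoxia response gene, had 3636, 3656 and 4895 in the ALDH high libraries, against 4488, 2558 and 4228 in ALDH low, and here ALDH high 3 was the highest and ALDH low 2 the lowest. CAMKK2, a kinase upstream of AMPK, had 2582, 3059 and 2580 in the ALDH high libraries and 3085, 2612 and 2462 in the ALDH low libraries, a difference of 0.01 (−0.32 to 0.35). Of these 5 regulators, 2 lay above 0 and 3 below.

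Of the 3 steroid feedback genes, 1 lay above 0 and 2 below. FKBP5, the HSP90 co-chaperone that binds steroid receptors and is induced by them (chromosome 6, 35573585 to 35728583), had 3985, 6283 and 4272 normalized reads in the ALDH high libraries and 5058, 4523 and 3984 in the ALDH low libraries. ALDH high 2 lay above the rest and the other libraries overlapped, with a difference of 0.08 (95% interval −0.35 to 0.50). ZBTB16, a zinc finger repressor that androgen and glucocorticoid raise, had 320, 629 and 357 in the ALDH high libraries, against 703, 403 and 272 in ALDH low. ALDH low thus held both its highest and its lowest library, and the difference was −0.03 (−0.80 to 0.73). TSC22D3, a leucine zipper protein known as a glucocorticoid target, was even over ALDH high at 2784 to 2823 and ran from 2602 to 3532 in ALDH low, where ALDH low 3 was the highest.

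In the 3 transporters and channels the highest library was 1.32-fold to 1.46-fold above the lowest. SLC45A3, the prostate membrane transporter prostein (chromosome 1, 205657851 to 205680459), had 2434, 2926 and 2294 normalized reads in the ALDH high libraries and 3180, 2574 and 2679 in the ALDH low libraries, a difference of −0.14 (95% interval −0.49 to 0.20). ALDH low 1 was its highest library and ALDH high 3 its lowest, with overlap between. TRPM8, the cold-sensing cation channel, had 120, 150 and 176 in the ALDH high libraries, against 145, 142 and 148 in ALDH low, a difference of 0.02 (−0.48 to 0.52). ANKH, a membrane protein of pyrophosphate and citrate export, ran from 2492 to 3077 in ALDH high and from 2332 to 2781 in ALDH low.

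ELL2, an elongation factor of RNA polymerase II (chromosome 5, 95885098 to 95962071), had 436, 919 and 488 normalized reads in the ALDH high libraries and 1090, 533 and 618 in the ALDH low libraries. Its high libraries were ALDH low 1 and ALDH high 2, with a 2.501-fold span and a difference of −0.29 (95% interval −1.0002 to 0.42). EAF2, the partner of ELL proteins, had 81.7, 44.7 and 96.0 in the ALDH high libraries, against 142.1, 85.9 and 80.3 in ALDH low. Unlike ELL2 it had its lowest value in ALDH high 2, and its difference was −0.49 (−1.27 to 0.29), which became −0.16 without that library and −0.23 without ALDH low 1. MED28, a Mediator subunit, had the narrowest span of the 31 genes, from 1829 to 1947 in ALDH high and from 1943 to 2112 in ALDH low. Exons of FAM184B on the other strand cover 32.1% of the MED28 exon bases. TIPARP, a mono-ADP-ribosyltransferase, ran from 160 to 199 in ALDH high and from 132 to 170 in ALDH low. Of the 5 transcription genes, CREB3L4 included, 1 lay above 0 and 4 below.

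SPOCK1, a secreted proteoglycan of low level, had 35.6, 86.7 and 41.2 normalized reads in the ALDH high libraries and 55.4, 34.2 and 27.8 in the ALDH low libraries. ALDH high 2 was its highest library, and the difference of 0.41 (95% interval −0.51 to 1.33) was 0.03 without that library. C1orf116 ran from 1660 to 3637 in ALDH high and from 1771 to 2673 in ALDH low, with ALDH high 2 the highest. HERC3, a ubiquitin ligase, ran from 905 to 1812 in ALDH high and from 1053 to 1437 in ALDH low, and TPD52, a protein of vesicle trafficking, from 5966 to 6576 in ALDH high and from 6167 to 7298 in ALDH low. An exon overlap on the same strand covers 10.7% of TPD52. CENPN, a kinetochore protein that binds centromeric nucleosomes, had 5532, 6418 and 5412 in the ALDH high libraries, against 8494, 5542 and 7612 in ALDH low, a difference of −0.30 (−0.70 to 0.10) in which ALDH low 1 and 3 lay above all others. Exons on the other strand cover 22.8% of its exon bases. MPHOSPH9, a centriole protein, ran from 1180 to 1348 in ALDH high and from 899 to 1279 in ALDH low, and the membrane protein gene FAM174B from 996 to 1111 in ALDH high and from 894 to 1564 in ALDH low, with ALDH low 3 lowest of the ALDH low libraries in MPHOSPH9 and highest in FAM174B.

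Per length, the highest of the genes was UAP1, at 2478 normalized reads per kilobase of exon, followed by SORD at 1854, CENPN at 1822, TMPRSS2 at 1276, PLPP1 at 1103 and ACSL3 at 1026. The lowest were TRPM8 at 18.6, SPOCK1 at 7.52 and INPP4B at 5.40. The median was 398, beside 99.3 over all genes. SORD and CENPN differed by less than the spread of their own libraries, as did PLPP1 and its neighbours in this order.

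Leaving out single libraries changed how the genes lay. Without ALDH high 2, limma called 0 of the 31, and 5 had an unadjusted p under 0.05, against 4.56% of all genes. Without ALDH low 2 it called 0, and 3 had an unadjusted p under 0.05, against 10.6% of all genes. The smallest unadjusted limma p of the 31 was 0.1015 without ALDH high 1 and 0.1021 without ALDH high 3. It was 0.0872 without ALDH low 1 and 0.1412 without ALDH low 3. ALDH high 2 and ALDH low 2 were also both left out, because earlier work on these data had shown where they lie. Singling out these libraries, alone or together, thus followed the outcome. The p-values without either of them, and from the remaining 2 against 2 samples, do not hold as a test. For the record, with both left out limma called 1 of the 31 genes, PLPP1, against 0.669% of all genes. It called none of the 31 with all samples. PLPP1 stood at 879 and 825 normalized reads for ALDH high 1 and 3, against 3367 and 3972 for ALDH low 1 and 3, a difference of −2.10. In 27 of the 31 genes the difference then lay below 0, where 49.3% of all genes did, and the median was −0.26, beside 0.01 over all genes. TMPRSS2, ABHD2, MPHOSPH9 and TIPARP were the 4 that lay above 0, and ABHD2 had the highest value, 0.52. The samples numbered 2 carry no label that sets them apart. Why they lie where they do was not tested.

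**Figure D4:**
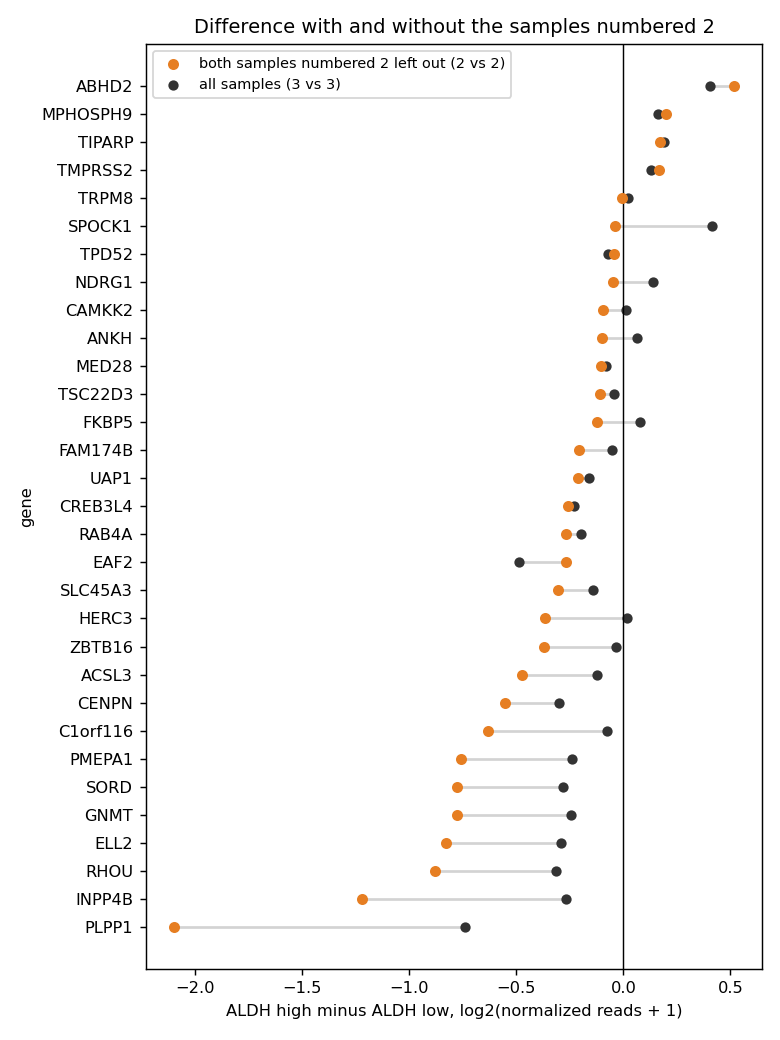
Difference between ALDH high and ALDH low on the log2(normalized reads + 1) scale for each of the 31 genes, in black with all samples (3 against 3) and in orange with both samples numbered 2 left out (2 against 2). Most orange points lie left of their black points, furthest in PLPP1 at −2.10. TMPRSS2, CREB3L4, UAP1 and RAB4A move little, as do others, among them TIPARP, MED28 and TPD52.

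Other genes of the androgen pathway were not called either. Beside the counts that follow, 52.3% of all genes lay above 0 and 47.7% below, with a median of 0.02. The table held 5 of 5 listed kallikrein genes, of which 4 lay above 0 and 1 below, the median being 0.14, with none passing limma's threshold in either direction. Of 78 other androgen response genes, 77 were in the table, with 32 above 0 and 45 below, a median of −0.06, and 0 called higher and 0 called lower. SRP19, a signal recognition particle subunit, had the smallest unadjusted limma p of that list, 0.0107, with 704 ± 38.6 normalized reads in the ALDH high libraries and 992 ± 121 in the ALDH low libraries (SD, n = 3 each), with an adjusted p of 0.984. Of 17 cofactors and pioneer factors of the receptor, 15 lay above 0 and 2 below (median 0.16), and 0 were called. Of 13 chaperones of steroid receptors, 5 lay above 0 and 8 below, with a median of −0.05. Of 10 further genes that glucocorticoid also raises, 3 lay above 0 and 7 below, with a median of −0.11. The table held 6 of 9 androgen-repressed genes, with 2 above 0 and 4 below and a median of −0.24. None of these 3 lists had a gene called in either direction.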

How the data were processed

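The submitters' processing notes name Trimmomatic 0.36, STAR 2.5.2b, featureCounts, Subread 1.5.2 and DESeq2, and the build GRCh38. Per the labels' protocols, poly(A) RNA was sequenced and only uniquely placed reads in exons were counted; the labels do not say whether libraries kept strand. A single table was used, in which the authors give a signal for every gene and library (reads divided by a size factor), a log2 fold change of ALDH low over ALDH high, and p-values with adjusted p-values. Its 46 spike-in rows were left out of the tests and scaling. No row averaged under 9.65 normalized reads, so genes below that level were not analysed here.

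Values were whole multiples of 1 step per library, and at least 99.99% came out whole within 0.02 of a read. Because the values are normalized, limma 3.58.1 (R 4.3.3, mean-variance trend, pseudocount 1, no filter) was the main test. This scale understates changes of low genes. The quasi-likelihood test of edgeR 4.0.16 and DESeq2 1.42.0 ran on the recovered reads. Scripts were tested on simulated data. Coordinates, exon lengths and overlaps are from GENCODE 29 (GRCh38), which matched 15939 of 16000 identifiers; the sources used here do not give the release used for counting.

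Members and lists were chosen with earlier results of these data known. Every member is named. Values per library are given for members whose groups do not overlap, the 6 with the widest ranges, the 4 highest per length and 8 well-known ones, and for ABHD2, chosen after its values were seen; the others are given by their ranges. Groups of 3 limit the precision. Whether the replicate numbers pair the samples is not settled here, and the main test did not pair them.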

Additional observations from a re-analysis of the deposited data

Results flagged for a closer look

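ERCC spike-in sequences, which enter no comparison here, held 0.487% of reads summed over the 6 libraries, more than 0 counts would allow. By library this was 0.630%, 0.399% and 0.403% for ALDH high, against 0.491%, 0.556% and 0.448% for ALDH low, by sample number. Single outlying values were not looked for, since each group has 3 samples.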

How the results depend on the processing

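With 3 samples a group, 5 of the 31 intervals reach past a 2-fold change. No gene of the table was called with all samples by limma, edgeR or DESeq2, under pseudocount 10, a minimum mean of 100, total-count scaling or mitochondrial genes left out, or without any 1 library (0 to 0). With both samples numbered 2 left out, limma called 107 genes, 1 of them among the 31 (PLPP1, −2.10), and 4 of the 31 differences lay above 0. Those 2 libraries were chosen by where they lie in these data, so these calls do not hold as a test. Without 1 library, 7 to 14 lay above 0 (7 without ALDH high 2 or without ALDH low 2, 14 without ALDH low 1), 0 to 0 were called, and the median ran from −0.19 to −0.01. Groups did not overlap in 2 of the 31 genes under total-count scaling (1 higher and 1 lower, against 3.91% and 2.51% of all genes) and in 2 without mitochondrial genes (1 and 1, against 4.13% and 2.23%), and ALDH low 2 was the highest library in 1 gene under each. With mitochondrial genes left out, 62.5% of genes lay above 0, against 52.3%, and 14 of the 31.

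The sign turned with both samples numbered 2 left out in FKBP5 (−0.12), NDRG1 (−0.0462), CAMKK2 (−0.0946), HERC3 (−0.37), TRPM8 (−0.00604), ANKH (−0.10) and SPOCK1 (−0.0388). It turned in ZBTB16 under total-count scaling (0.0108), and without mitochondrial genes in ZBTB16 (0.0263), TSC22D3 (0.0144) and FAM174B (0.00889). It turned in C1orf116 with edgeR (0.00807) and DESeq2 (0.00776). Without 1 library it turned in 12 genes, where the values ran from −0.13 to 0.20 in FKBP5, −0.12 to 0.29 in NDRG1, −0.0689 to 0.11 in CAMKK2, −0.27 to 0.23 in HERC3, −0.36 to 0.33 in ZBTB16, −0.11 to 0.16 in TRPM8, −0.62 to 0.0159 in ELL2, −0.0324 to 0.12 in ANKH, −0.12 to 0.10 in TSC22D3, −0.19 to 0.21 in FAM174B, −0.79 to 0.16 in INPP4B and −0.45 to 0.11 in C1orf116. The cause was not tested.

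The fit with the replicate number as a block called 0 genes and 0 of the 31, and left their median at −0.07. Deviations of samples with the same number from their group means had correlations of −0.46, −0.43 and 0.14. These values showed no pairing by number. They cannot exclude it, since each group mean rests on 3 libraries and the samples numbered 2 lie apart from their groups in many genes.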
